A study of Mus musculus with 4 samples.

Results

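The MYC and MXD network is a set of 8 listed genes, Myc, Mycn, Max, Mxd1, Mxd3, Mxd4, Mxi1 and Mnt, chosen by name out of 20284 genes that the array names. All 8 had at least 1 probe, with 10 probes in all, and 7 were well above background on all 4 arrays. The signal was measured in 4 fractions of bone marrow of female C57BL6 mice aged 8 weeks, and every fraction was hybridised once, to its own single-colour Agilent array. The long-term stem cell fraction (LT-HSC) was sorted for c-Kit with Sca-1 and for the absence of CD34 and lineage antigens, and the short-term fraction (ST-HSC) carried CD34 as well. The progenitor fraction is labelled c-Kit-positive and lineage-negative, while the protocol text shared by all samples words its gate differently, so that Sca-1 and the exact gate are uncertain. The Lin+ fraction was lineage-positive cells, labelled as differentiated. No fraction carried a transgene, a deletion or a treatment in the labels, which do not say how many mice were pooled.

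MYC and its relative MYCN are basic helix-loop-helix leucine zipper transcription factors that bind DNA as pairs with MAX. MXD1, MXD3, MXD4, MXI1 and MNT pair with the same MAX and bind the same sequence, the E-box CACGTG, but recruit the SIN3 corepressor complex, so that they oppose MYC at genes of growth, ribosome assembly and cell division. In blood formation, MYC proteins are known for their part in the balance between stem cell self-renewal and differentiation, and MXD1 for its appearance in maturing myeloid cells.

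Values are the log2 of the processed spot signal minus the 75th percentile of the array, so that 0 stands for the signal at that percentile. Probes differ in how well they hybridise, so a level was set only against the same probe on another array. The ± values are the scanner software's own error of a spot, and mice may vary by more than that. Because a fraction has 1 array, replicates cannot check any difference and p-values are absent. A gene was called when its values in 2 fractions lay 2-fold or more apart and it was well above background in at least 1 of them. From 40.9% to 45.9% of probes were well above background on an array. All of the 4 long-term stem cell markers (Procr, Hlf, Mecom and Slamf1) were above background in LT-HSC, and 1 of 4 was in Lin+ cells. The B cell markers Cd79a and Vpreb3 were both above background only in Lin+ cells, with 0 of 2 in LT-HSC and ST-HSC and 1 of 2 in progenitors. These are bulk RNA samples, in which fewer cells of a type and less RNA per cell cannot be told apart.

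The network changed in 3 ways along differentiation. Mycn was lower at each step, and was lower in Lin+ cells than in LT-HSC by 6.42 ± 0.29. Myc was nearly level through LT-HSC, ST-HSC and progenitors, and was lower in Lin+ cells than in progenitors by 3.01 ± 0.20. Mxd1 and Mxd3 were higher in Lin+ cells than in progenitors by 3.43 ± 0.20 and 2.82 ± 0.23. Max, Mnt and Mxd4 differed by less than 2-fold in each comparison by the probe that stands for the gene.

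Myc encodes the best-known activator of the network and was read by 1 probe printed on 2 spots. Its level was 4.20, 4.41, 4.42 and 1.41 in LT-HSC, ST-HSC, progenitors and Lin+ cells. The first 3 fractions were not separated, since neighbours in their order differed by less than 2 combined spot errors (0.01 ± 0.20 between progenitors and ST-HSC, and 0.21 ± 0.20 between ST-HSC and LT-HSC). The Lin+ fraction lay apart below them. The spots of the Myc probe gave intensities of 3483 and 3574 for LT-HSC, 4491 and 4765 for ST-HSC, 2772 and 3137 for progenitors, and 597 and 630 for Lin+ cells, so the pair of spots agreed closely beside the difference between fractions. In Lin+ cells Myc was 8.06-fold below progenitors and 6.92-fold below LT-HSC. Of 12981 genes compared between Lin+ cells and progenitors, 1.34% differed by as much as Myc or more in that direction.

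Mycn encodes N-MYC, the second activator, which is known to act beside MYC in stem cells. Its level was 3.62, 1.56, 0.48 and -2.80 in LT-HSC, ST-HSC, progenitors and Lin+ cells. All neighbours in this order were separated by more than 2 spot errors. The step from LT-HSC to ST-HSC was a difference of -2.06 ± 0.20 (4.16-fold), that from ST-HSC to progenitors -1.08 ± 0.21 (2.12-fold) and that from progenitors to Lin+ cells -3.28 ± 0.29 (9.72-fold). Between LT-HSC and Lin+ cells Mycn was 85.7-fold lower, and 0.128% of 13276 genes differed as far down. The Lin+ signal of 33.0 intensity units was near the low end of the array, and the size of the drop depended on the background correction. With normexp, a model-based background correction, the difference of Lin+ cells from LT-HSC was -4.66, that of Lin+ cells from progenitors was -1.85, and that of progenitors from ST-HSC was -0.95, which is below 2-fold.

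Max encodes the partner that all other members of the list need to bind DNA. Its level was 4.77, 4.65, 5.01 and 5.0 in LT-HSC, ST-HSC, progenitors and Lin+ cells. No neighbours in this order were separated. Its whole range of 0.36 was narrow: 96.0% of the 10615 genes well above background on all arrays had a range as wide or wider, and the median range was 1.18. The ranges of the other members lay at 6.42 for Mycn, which 0.641% of those genes reached, 3.65 for Mxd1 (3.85%), 3.55 for Mxd3 (4.28%), 3.01 for Myc (6.64%), 0.97 for Mxd4 (62.6%) and 0.74 for Mnt (77.1%).

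**Figure D1:**
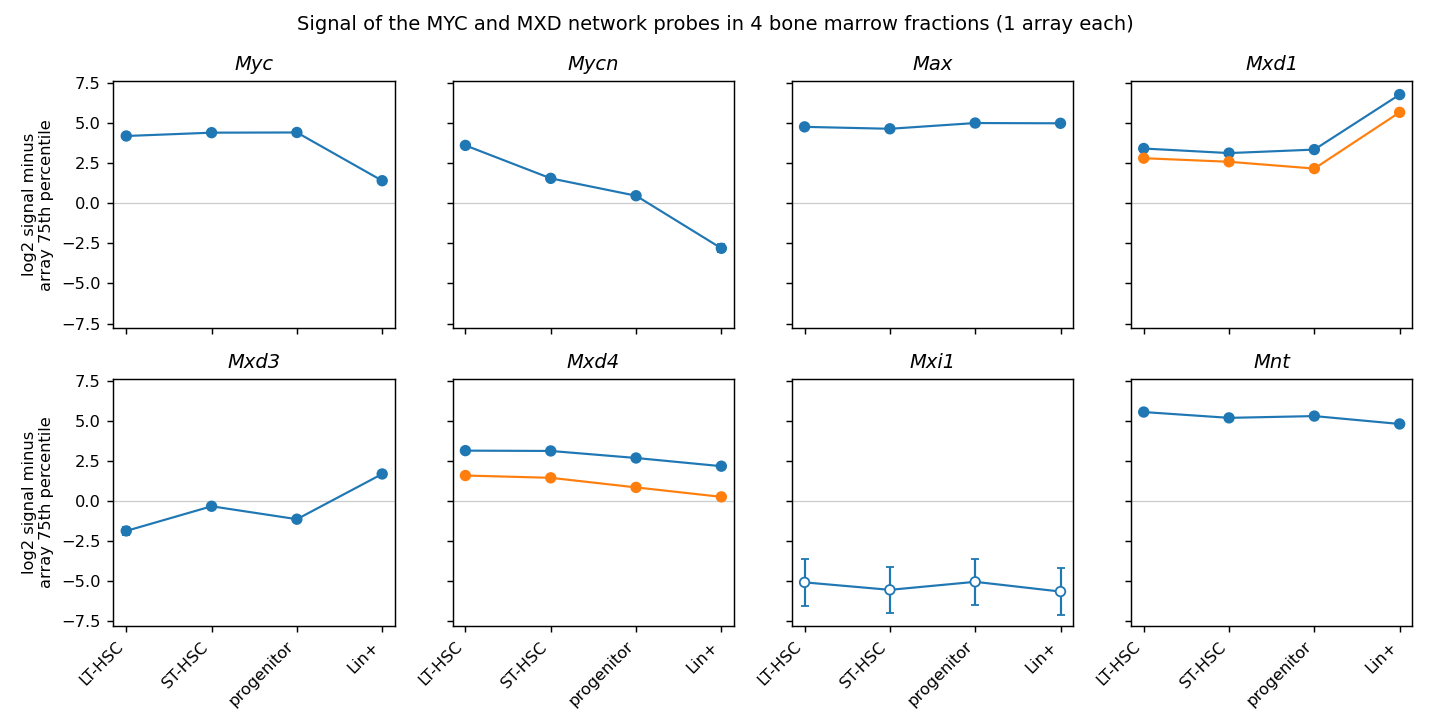
Each panel plots 1 gene, with the 4 fractions on the x axis and, on the y axis, the log2 signal minus the 75th percentile of the array. Blue points are the probe that stands for the gene, orange points its other probe, open points are not well above background, and bars are the spot error. Mycn goes from 3.62 to -2.80, Myc is lower in Lin+ cells alone, and Mxd1 and Mxd3 are highest there.

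Mxd1, also called MAD1, encodes the founding antagonist of the MXD family. Its brighter probe gave 3.42, 3.14, 3.35 and 6.79 in LT-HSC, ST-HSC, progenitors and Lin+ cells. Its other probe gave 2.82, 2.59, 2.17 and 5.68 in the same order. Both probes set the Lin+ fraction apart above the other fractions. The difference of Lin+ cells from progenitors was 3.43 ± 0.20 (10.8-fold) by one probe and 3.51 ± 0.20 (11.4-fold) by the other, and that of Lin+ cells from LT-HSC was 3.36 ± 0.20 (10.3-fold) and 2.86 ± 0.20 (7.27-fold). The probes disagreed in sign for progenitors against ST-HSC, at 0.22 ± 0.20 and -0.42 ± 0.20, so that no direction is given for that step. LT-HSC, progenitors and ST-HSC were not separated by the brighter probe.

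Mxd3 encodes an antagonist that, unlike most of its family, is known to appear in dividing cells around DNA synthesis. Its level was -1.87, -0.33, -1.14 and 1.69 in LT-HSC, ST-HSC, progenitors and Lin+ cells. This order, with Lin+ cells first, then ST-HSC, progenitors and LT-HSC, was separated at each place by more than 2 spot errors. Mxd3 was higher in ST-HSC than in LT-HSC by 1.54 ± 0.27 (2.90-fold) and in Lin+ cells than in LT-HSC by 3.55 ± 0.27 (11.7-fold). Its signal was low, at 52.5 intensity units in LT-HSC and 62.5 in progenitors. With normexp the difference of ST-HSC from LT-HSC was 0.75 and was no longer called, that of Lin+ cells from progenitors was 1.99, and that of Lin+ cells from LT-HSC was 2.40. The difference of progenitors from ST-HSC, -0.81 ± 0.23, was not called, although 4 of 10 other settings took it past 2-fold.

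Mxd4 encodes a further antagonist of this family. Its brighter probe gave 3.14, 3.12, 2.68 and 2.17 in LT-HSC, ST-HSC, progenitors and Lin+ cells, and its other probe gave 1.59, 1.45, 0.85 and 0.26. Both probes were lower in Lin+ cells than in the stem cell fractions. LT-HSC and ST-HSC were not separated, and the later steps were, by 0.44 ± 0.20 and 0.51 ± 0.20. The difference of Lin+ cells from LT-HSC lay just short of 2-fold by the brighter probe (-0.97 ± 0.20) and past it by the other (-1.33 ± 0.21). Spike-in scaling put the difference of Lin+ cells from progenitors at 0.06 instead of -0.51, and that of progenitors from ST-HSC at -1.04 instead of -0.44.

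Mnt encodes the large, broadly present antagonist of MYC. Its level was 5.55, 5.19, 5.30 and 4.81 in LT-HSC, ST-HSC, progenitors and Lin+ cells. Ordered by level, as LT-HSC, progenitors, ST-HSC and Lin+ cells, no neighbours were separated. Lin+ cells differed from progenitors by -0.49 ± 0.20, which is more than 2 spot errors. The largest difference of Mnt, Lin+ cells against LT-HSC, was -0.74 ± 0.20. Mxi1, also called MXD2, was read by 1 probe with the accession NM_001008542, one of several transcripts of the gene. That probe was not well above background on any array, and the order of differentiation gave 5.67, 4.66, 4.17 and 4.58 intensity units. Nothing can be said of the direction of Mxi1 from it.

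Counted over the list, 2 of 7 compared members were called between ST-HSC and LT-HSC, Mycn lower and Mxd3 higher, beside 14.8% of 12617 genes called in either direction. Between progenitors and ST-HSC 1 of 7 was called, Mycn, which was lower, beside 20.2% of 12607 genes called in either direction and 10.2% called lower. Between Lin+ cells and progenitors 4 of 7 were called, Mxd1 and Mxd3 higher and Myc and Mycn lower, beside 40.9% of 12981 genes. Between Lin+ cells and LT-HSC the count was again 4 of 7 with the same genes and directions, beside 39.4% of 13276 genes. These comparisons share arrays and are not independent of each other. With so few members, the counts lay near the shares of all genes and say little beyond the genes named. The median member differed by -0.12, 0.01, -0.49 and -0.74 in these comparisons, where the median of all genes compared differed by 0.02, 0.18, -0.34 and -0.17.

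**Figure D2:**
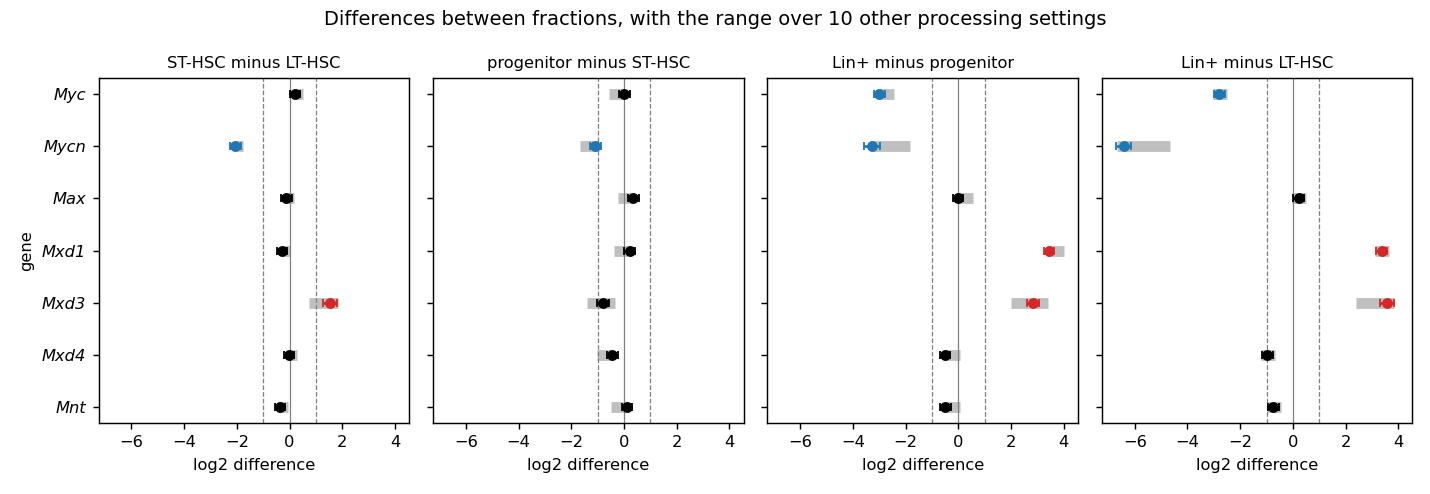
Each panel is 1 comparison, with the log2 difference on the x axis and the 7 members above background on the y axis. Points are the reported differences with their spot error, red where called higher and blue where called lower, grey bars span the values over 10 other processing settings, and dashed lines mark 2-fold. For Myc, Mycn, Mxd1 and Mxd3 the grey bars stay beyond the 2-fold lines in both comparisons of Lin+ cells.

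Values of a gene relative to another on the same array do not depend on a factor that scales the whole array, so the activators were also followed relative to each partner or antagonist. From progenitors to Lin+ cells, Myc relative to Mxd1 changed by -6.44 ± 0.29, an 87.0-fold shift from the activator towards the antagonist, and by -6.52 (91.7-fold) with the other Mxd1 probe. The range over 10 other settings was -6.48 to -6.19. Settings that only scale a whole array, spike-in scaling among them, leave this ratio unchanged by construction. Only settings that treat probes unequally, such as normexp, could move it. Myc relative to Mxd3 changed by -5.83 ± 0.31 in that step, or by -4.62 with normexp. Relative to the antagonists that varied less, Myc changed by -2.50 ± 0.29 against Mxd4 and by -2.52 ± 0.29 against Mnt, and relative to Max it changed by -2.99 ± 0.29. The shift was thus larger against Mxd1 and Mxd3, at 87.0-fold and 57.0-fold, than against Mxd4 and Mnt, at 5.65-fold and 5.73-fold, and Mxd4 and Mnt lay within the spot error of each other.

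Before the Lin+ step these ratios changed by less than at that step. From LT-HSC to progenitors, Myc relative to Mxd1 changed by 0.29 ± 0.29, relative to Mnt by 0.47 ± 0.29, relative to Max by -0.02 ± 0.29 and relative to Mxd4 by 0.68 ± 0.29. With the other Mxd1 probe, Myc relative to Mxd1 changed by 0.43 from LT-HSC to ST-HSC and by 0.44 from ST-HSC to progenitors. Myc relative to Mxd3 was lower in ST-HSC than in LT-HSC by a change of -1.33 ± 0.34, which normexp reduced to -0.51.

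The activators also moved against each other. Myc relative to Mycn was higher in ST-HSC than in LT-HSC by 2.26 ± 0.29 (4.80-fold), and in progenitors than in ST-HSC by 2.14-fold, a change that normexp reduced to 0.75 on the log2 scale. From progenitors to Lin+ cells that ratio changed by 0.27 ± 0.36, and its sign depended on the processing, with a range of -0.79 to 0.70 over the other settings. Mycn relative to Mxd1 changed by -9.79 ± 0.36 between LT-HSC and Lin+ cells, or by -8.03 with normexp.

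**Figure D3:**
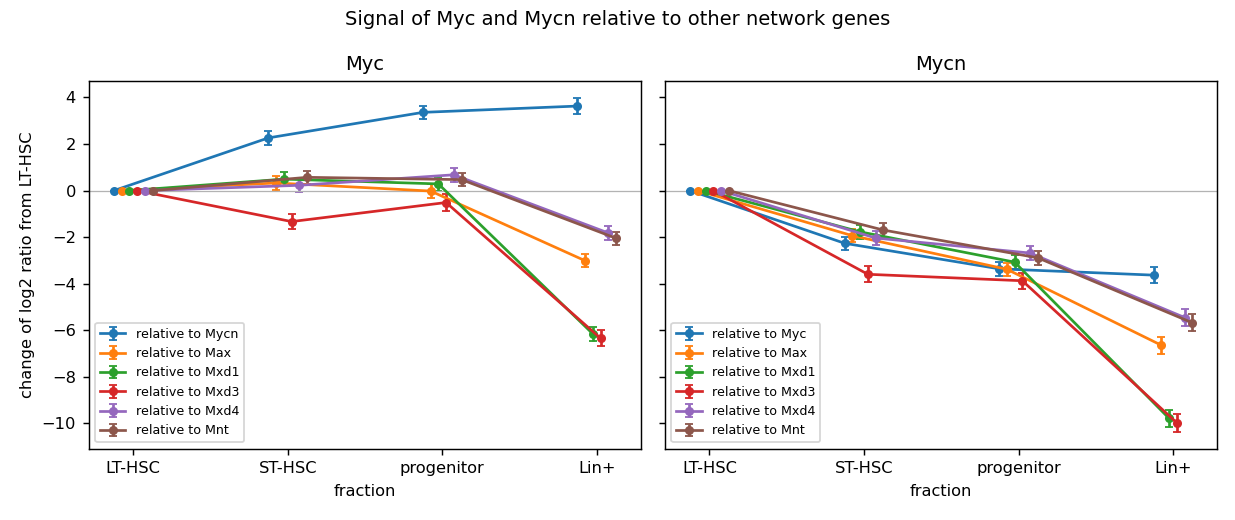
The y axis is the change of a log2 ratio from its value in LT-HSC, and the x axis the 4 fractions, for Myc on the left and Mycn on the right, each relative to the other network genes above background. Bars are combined spot errors. Myc relative to Mxd1 and Mxd3 is near its LT-HSC value in progenitors and more than 6 log2 units lower in Lin+ cells (-6.16 and -6.34), while Mycn relative to every other gene shown is lower from ST-HSC on.

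Lin+ cells are a mixture of lineages, and the markers of mature cells moved with the same comparison. The summed signal of the 4 neutrophil markers (Ltf, Ngp, Camp and S100a8), in multiples of the 75th percentile of the array, was 2.62, 2.18, 84.3 and 4534 in the order of differentiation. The sum over the 4 erythroid markers (Hba-a1, Klf1, Alas2 and Slc4a1) was 1.75, 0.559, 43.8 and 4419. The B cell markers summed to 0.0891, 0.122, 0.513 and 199.6, and the 3 T cell markers to 4.16, 4.20, 7.80 and 20.4. The 3 granulocyte-monocyte markers (Mpo, Elane and Ctsg) summed to 112, 1421, 4836 and 1749, and the 3 megakaryocyte markers (Pf4, Itga2b and Treml1) to 100.7, 9.77, 266 and 4.36. The neutrophil, erythroid, B cell and T cell sums were thus highest in Lin+ cells, where Mxd1 and Mxd3 were highest and Myc and Mycn lowest, while the granulocyte-monocyte and megakaryocyte sums were highest in progenitors. Their part in the differences of the network genes was not tested. The long-term stem cell markers summed to 57.6, 22.6, 2.84 and 0.626, in the order in which Mycn declined. Of these, Slamf1 did not decline at each step, being well above background in progenitors (-2.32) and not in ST-HSC.

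Differences that use the progenitor array followed the genomic span of genes. In the shortest of 5 groups of span, which holds Myc, Mycn and Mxd3, progenitors differed from ST-HSC by a median of 0.42, and in the longest group by -0.15. For Lin+ cells against progenitors these medians were -0.56 and -0.04. With each group of span centred on 0, Myc, Mycn, Mxd1 and Mxd3 remained past 2-fold in the same direction for Lin+ cells against progenitors. Mycn remained past it for progenitors against ST-HSC, where Mxd3 was then called lower as well.

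Genes with the most similar profiles were sought among 10614 others above background on all arrays, by the distance between the 4 levels after centring each gene on its mean. With only 4 fractions a close match is a description. Closest to Myc were Pld6, a mitochondrial phospholipase, at a distance of 0.14, Bcl2l14, of the BCL2 family, also at 0.14, and Serf1 at 0.18, and 258 genes lay within 1 unit of it. Closest to Mycn were Bex1 at 0.56 and the collagen gene Col16a1 at 0.70, and 8 genes lay within 1 unit. Bex1, for example, read 4.36, 2.88, 1.62 and -2.17 in the order of differentiation. Closest to Mxd1 were Rab3il1 at 0.22, Fam220a at 0.22 and Ube2o, a ubiquitin-conjugating enzyme of maturing red cells, at 0.25. Closest to Mxd3 were Lgmn, the lysosomal protease legumain, at 0.23, Cdkn3, a phosphatase of the cell cycle, at 0.47 and Cd52, a leukocyte surface antigen, at 0.51.

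The E-box bound by the network is a palindrome, so that 1 search of CACGTG covers both strands. It was sought in promoters of RefSeq, build GRCm38.p6, taken from 250 bases before to 50 after the start of a gene. Of 27025 genes with a promoter there, 8.09% held the motif, as did 11.3% of the 11001 among them that were above background on at least 1 array. Promoters matched 7 of the 8 members, all but Myc. No window of Mycn, Mxd1, Mxd3 or Mxi1 held the motif. It was found in the other 3 of the 7, Max, Mnt and Mxd4. The stretches around it are shown for these members because they carry the sequence that the network itself binds, with the motif in capitals.
Max (chr12:76962229-76962291, minus strand): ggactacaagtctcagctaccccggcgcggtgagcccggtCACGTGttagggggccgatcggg
Mnt (chr11:74830761-74830846, plus strand): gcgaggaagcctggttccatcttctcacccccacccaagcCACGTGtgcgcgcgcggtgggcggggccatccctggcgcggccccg
Mxd4 (chr5:34187884-34187960, minus strand): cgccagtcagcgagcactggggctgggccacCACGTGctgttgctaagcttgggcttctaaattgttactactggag
The first base of the motif lay at position -3 from the start of Max, -123 from that of Mnt and -219 from that of Mxd4. A match is a description of the letters and not a measured binding site.

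Genes known to be activated by MYC were described from 4 lists, of ribosome assembly, metabolism and transport, translation with chaperones and mitochondria, and the cell cycle, with 63 genes in all. Between Lin+ cells and progenitors 40 of 63 were called lower and 2 higher, beside 26.4% of all genes called lower and 14.5% called higher. The median of the 63 was -1.40, where that of all genes compared was -0.34. Of the ribosome assembly genes 14 of 17 were lower, among them Polr1b, of the polymerase that makes ribosomal RNA, at -2.49 ± 0.21, Mybbp1a at -2.48 ± 0.20, Rrp9 at -2.43 ± 0.20 and Nop2, a ribosomal RNA methyltransferase, at -2.41 ± 0.20. Of the translation, chaperone and mitochondrial genes 11 of 12 were lower, with C1qbp at -2.47 ± 0.20 and the prohibitin gene Phb at -2.23 ± 0.20. Of the metabolic genes 11 of 24 were lower, led by Srm, spermidine synthase, at -2.77 ± 0.20, Ppat at -2.35 ± 0.21 and Mthfd1 at -2.30 ± 0.20, and Tfrc, the transferrin receptor, was higher by 2.66 ± 0.21. Of the cell cycle genes Tfap4 at -2.36 ± 0.21, Cdk4 at -2.02 ± 0.20, Ccnd2 at -1.62 ± 0.20 and Rcc1 at -1.53 ± 0.20 were the 4 of 10 called lower, while E2f2 was higher by 4.56 ± 0.20. With the median gene set to 0, 31 of the 63 were called lower beside 14.1% of all genes, and with spike-in scaling 26 were, beside 11%.

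The motif was present in the promoters of 16 of the 53 genes of these 4 lists that had one (30.2%). It was in 0 of 9 MYC-repressed and 0 of 10 dividing-cell genes, beside 11.3% of genes above background on at least 1 array. With so few genes, these 2 counts of 0 lie near that share. The 4 lists were chosen as known targets of MYC, so their share is a description. The carrier with the largest decline from progenitors to Lin+ cells in each list, among those with the motif before the start of the gene and chosen after their values were seen, is shown so that the motif can be set beside those of the network's own genes.
Nop2 (chr6:125131783-125131868, plus strand): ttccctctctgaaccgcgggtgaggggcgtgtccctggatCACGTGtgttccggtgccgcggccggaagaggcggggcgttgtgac
Impdh2 (chr9:108560286-108560371, plus strand): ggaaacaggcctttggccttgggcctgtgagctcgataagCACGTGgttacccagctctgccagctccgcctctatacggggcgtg
Phb (chr11:95666707-95666770, plus strand): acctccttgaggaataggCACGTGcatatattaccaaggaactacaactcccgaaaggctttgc
Cdk4 (chr10:127063323-127063408, plus strand): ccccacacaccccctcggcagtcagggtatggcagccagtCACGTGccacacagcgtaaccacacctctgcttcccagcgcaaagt
Impdh2, an enzyme of guanine nucleotide synthesis, differed by -2.06 ± 0.20 in that step. Cdk4, the cyclin D-dependent kinase, carried 4 copies of the motif in its window, and the other 3 carried 1 each.

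At the earlier steps the same 63 genes differed less. Fewer of all genes were called there too, 14.8% and 20.2% in either direction, beside 40.9% between Lin+ cells and progenitors. Between ST-HSC and LT-HSC 4 of 63 were called higher, Shmt1, Mthfd2, E2f2 and Cks1b, and 0 lower, beside 5.81% of all genes called higher. The median of the 63 was 0.35, where that of all genes compared was 0.02. Mthfd2, a mitochondrial folate enzyme, was higher by 1.41 ± 0.23 and Cks1b, a partner of cyclin-dependent kinases, by 1.27 ± 0.20. Between progenitors and ST-HSC 14 were called higher and 0 lower, beside 10% called higher. The median of the 63 was 0.67, where that of all genes compared was 0.18. Rrp12 was higher by 1.53 ± 0.21, Mthfd1 by 1.41 ± 0.20, the amino acid transporter gene Slc7a5 by 1.36 ± 0.20 and Srm by 1.27 ± 0.20. Scaling changed that count, to 5 with the median gene set to 0, beside 6.85% of all genes called higher, and to 0 with spike-in controls, beside 4.11%. With spike-in controls 6 of the 63 were called lower, beside 24.2% of all genes. Between Lin+ cells and LT-HSC 18 were lower and 5 higher, beside 23.2% and 16.1% of all genes, and with the median gene set to 0 these counts were 10 and 10, beside 18.6% and 19.5%.

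Of the 12 compared genes known to be repressed by MYC, 4 were higher and 0 lower in Lin+ cells than in progenitors. Of all genes, 14.5% were called higher and 26.4% lower. Thbs1, thrombospondin, was higher by 4.01 ± 0.20, Gadd45a, a stress gene, by 2.22 ± 0.20, Btg1, an antiproliferative gene, by 2.04 ± 0.20 and Cdkn1b, which encodes the inhibitor p27, by 1.46 ± 0.20. Cdkn1a, which encodes p21, differed in the opposite direction, by -0.73 ± 0.20 in this step and by -1.69 ± 0.20 between Lin+ cells and LT-HSC. In that last comparison 4 were higher and 3 lower, beside 16.1% and 23.2% of all genes. The list also had calls at the earlier steps, where Myc was nearly level. Between ST-HSC and LT-HSC Itgal was higher by 1.80 and Ndrg2 differed by -2.21, beside 5.81% of all genes called higher and 9% lower. Between progenitors and ST-HSC 1 was higher, Gadd45a by 1.87, and 0 lower, beside 10% and 10.2%.

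**Figure D4:**
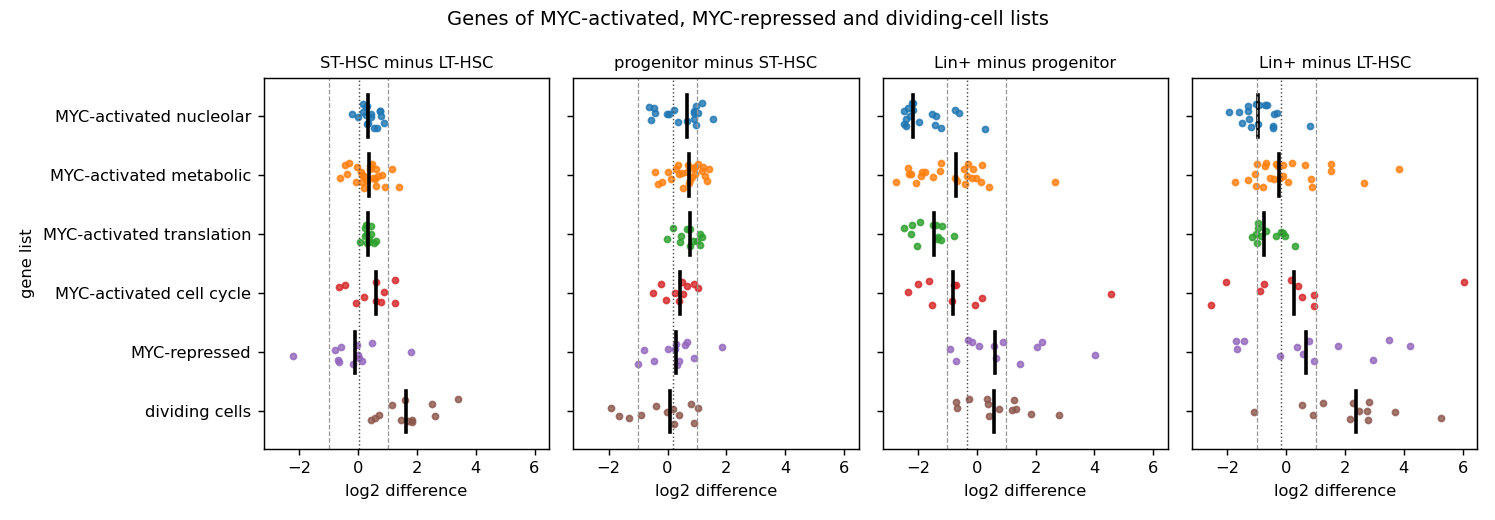
Each point is a gene of a list (y axis) and its log2 difference (x axis) in 1 comparison per panel. Black bars are list medians, the dotted line is the median of all genes compared, and dashed lines mark 2-fold. Ribosome assembly genes have a median of -2.18 in Lin+ cells against progenitors, where the median of dividing-cell genes is 0.57.

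Genes of dividing cells did not follow Myc. Mki67, a marker of dividing cells, read 1.51, 4.89, 3.99 and 6.78 in LT-HSC, ST-HSC, progenitors and Lin+ cells. This order of fractions was the same as for Mxd3, and Top2a, Ccnb1 and Ccna2 of the list shared it. Cdk1, Mcm2, Mcm5, Pcna, Bub1, Aurkb, Birc5 and Rrm2 of the same list did not. Some of these placements rest on small differences. Ccnb1 read 4.89 in ST-HSC and 4.87 in progenitors, Top2a 3.18 in ST-HSC and 3.36 in Lin+ cells, and Bub1 1.90 in ST-HSC and 1.87 in Lin+ cells. Of 12 listed genes 9 were higher in ST-HSC than in LT-HSC, 1 was higher and 3 lower in progenitors than in ST-HSC, and 5 were higher in Lin+ cells than in progenitors. Of all genes, 5.81% were called higher in the first of these comparisons, 10% higher and 10.2% lower in the second, and 14.5% higher in the last. The list medians were 1.64, 0.07 and 0.57. The sign of the progenitor median turned under scalings such as the median gene at 0 (-0.13) and spike-in controls (-0.52).

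Around the core network, Bmyc, a shorter relative of Myc, read 2.96, 3.18, 2.87 and 0.83 in the order of differentiation. Like Myc it was lower in Lin+ cells alone, by a difference from progenitors of -2.05 ± 0.20. Mycl, the third activator, was not well above background in LT-HSC, ST-HSC or progenitors and was at least 2.20-fold higher in Lin+ cells than in progenitors. Mga, which encodes a very large MAX partner, was not well above background in progenitors, so its differences there are uncertain. As read, progenitors differed from ST-HSC by -1.63 ± 0.40 and Lin+ cells from progenitors by 1.17 ± 0.40. The partners of the parallel MLX network, Mlx, Mlxip and Mlxipl, had 0 calls in the 4 comparisons, where 14.8%, 20.2%, 40.9% and 39.4% of all genes were called. Mlx lay just short of 2-fold for Lin+ cells against LT-HSC (0.99 ± 0.21). For progenitors against ST-HSC, Mlx differed by 0.92 ± 0.21 and Mlxipl by 0.95 ± 0.32.

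Of the SIN3 complex that the antagonists recruit, 16 of 16 listed genes were compared. Between Lin+ cells and progenitors 1 was called higher and 1 lower, beside 14.5% and 26.4% of all genes. Rbbp7 was lower in that step by a difference of -1.34 ± 0.20. Arid4b was not well above background in progenitors, so its differences there are uncertain. As read, progenitors differed from ST-HSC by -2.17 ± 0.42 and Lin+ cells from progenitors by 1.99 ± 0.42. The scaffold genes Sin3a and Sin3b and the deacetylase genes Hdac1 and Hdac2 had 0 calls.

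Cofactors that MYC recruits were called lower in Lin+ cells than in progenitors for 6 of 13 compared and higher for 1, beside 26.4% and 14.5% of all genes. Kat2a, an acetyltransferase, differed by -2.34 ± 0.20, the paired helicase genes Ruvbl1 and Ruvbl2 by -2.17 ± 0.20 and -1.51 ± 0.20, and Trrap, the scaffold that binds MYC, by -1.16 ± 0.20, while Ep300 was higher by 1.28 ± 0.24. With the median gene set to 0 the count of lower genes was 3, beside 14.1% of all genes. Of 10 compared genes that act on the turnover of MYC protein, Usp36, a nucleolar deubiquitinase, was lower in Lin+ cells than in progenitors by a difference of -1.43 ± 0.22 and Btrc, a ubiquitin ligase subunit, was higher by 1.06 ± 0.21, the only calls of that list in this comparison, beside 26.4% of all genes called lower and 14.5% called higher. Fbxw7, the ligase known to mark MYC for destruction in stem cells, read 0.05, 0.38, 0.15 and 0.71 in the order of differentiation, with 0 calls. Aurka, a mitotic kinase that protects N-MYC, was higher in ST-HSC than in LT-HSC by 1.82 ± 0.20, beside 5.81% of all genes called higher. At that step 9 of 12 dividing-cell genes were higher as well and Mycn was lower. A link between Aurka and either was not tested.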

How the data were processed

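Signal was measured on 4 single-colour arrays, 1 per sorted fraction, from 10 ng of total RNA each. The deposited values are linear intensity per spot, which per the file headers was corrected for background and spatial trend within the array and not scaled between arrays, with Agilent Feature Extraction 10.7.1.1 per the submitters' processing notes. The authors' value table holds a ratio per probe, which was the processed signal over a constant of its array (191, 217, 137 and 230) to within 1% for 100% of 55246 single-spot probes, with column medians of 0.0619, 0.0630, 0.0704 and 0.0738. Its scale, centring and direction are thereby known, and it served as an alternative.

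Control and outlier spots were left out, repeat spots were averaged as log2 values, and 3 of 55681 probes were dropped. Saturation was flagged on no spot. Arrays were scaled by its 75th percentile (192, 217, 137 and 230 intensity units). A probe was well above background where all its spots were flagged so. A value not well above background was raised, where it lay lower, to the lowest value that the array had well above background. Differences from a raised value are bounds, given as at least N-fold. The progenitor values of Mga and Arid4b lay above that lowest value and entered as read. Probes were named by accession through RefSeq of assembly GRCm38.p6, which named 26762 probes (48.1%), and the brightest probe stood for a gene. The array design uses build mm9, so no probe coordinates are given. The promoters carry their own coordinates in GRCm38.p6. The number of arrays limits the precision.

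Members and gene lists were chosen with earlier results of these data known, and some genes of the lists are not reported here. The named genes are all members, called genes with the largest differences of each list, and up to 3 most alike genes of each member that spans at least 1 log2 unit. Alternatives covered scaling, background correction (normexp with offset 50, limma 3.58.1), dim probes, the choice of probe, the value table and fold thresholds of 1.5 and 3. Spike-in scaling (the 6 brightest spike-in probes), centring by genomic span (5 groups) and normexp on the median signals were added after the data were seen. Spans from GRCm38.p6 served only to order genes. Analyses ran in Python 3.11.15 and R 4.3.3.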

Additional observations from a re-analysis of the deposited data

How the results depend on the processing

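The calls of Lin+ cells against progenitors (2 members higher, 2 lower) and the count of 2 higher against LT-HSC were the same in number under all 12 alternatives, and 2 were lower in Lin+ cells than in LT-HSC except at 1.5-fold, where 4 were, and with median scaling or the mean over probes, where Mxd4 made 3. The 1 member higher in ST-HSC than in LT-HSC became 0 with normexp and at 3-fold. The 1 member lower in progenitors than in ST-HSC became 2 with the percentile over probes above background on all arrays, with the median gene set to 0, within groups of genomic span and at 1.5-fold, 3 with spike-in scaling, and 0 with normexp and at 3-fold. No called difference of a member changed sign. Of 28 differences of members, 27 moved by more than their spot error with spike-in scaling, 17 with the median gene set to 0 and 0 with the value table. Of 28 ratios between members, 10 moved with normexp. With spike-in scaling 0 moved, which was fixed in advance because a factor on a whole array cancels in a ratio. The share of higher calls among all genes went from 35.5% to 69.3% with spike-in scaling for Lin+ cells against progenitors, and from 49.6% to 14.5% for progenitors against ST-HSC. The median gene differed by 0.03, 0.21, -0.42 and -0.21 in the order of the comparisons. Normexp on the mean signals was not run. No paired analysis was possible because each fraction has 1 array and all carry the same replicate number. Low signal limits Mycn in Lin+ cells, Mxd3 in LT-HSC and progenitors, and Mxi1 throughout.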

Other observations

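Some genes of the MYC-activated lists stood against the direction of Myc in Lin+ cells. E2f2, a cell cycle transcription factor, read 1.74, 2.99, 3.24 and 7.80 in the order of differentiation and was 66.8-fold higher in Lin+ cells than in LT-HSC. Tfrc read -0.29, 0.19, 0.90 and 3.56, a difference of Lin+ cells from LT-HSC of 3.85 ± 0.21. Mthfd2, Slc1a5 and Slc7a5, of folate metabolism and amino acid transport, were also higher in Lin+ cells than in LT-HSC, by 2.64 ± 0.23, 1.53 ± 0.20 and 1.51 ± 0.21, while Srm, Ppat, Paics, Impdh2 and Hk2 of the same list were lower. Odc1, which makes polyamines from ornithine and is the textbook E-box target of MYC, read 5.59, 5.67, 6.41 and 6.24 and had 0 calls, where Srm, the next enzyme of the pathway, was 2.77 lower in Lin+ cells than in progenitors. Thbs1 and Gadd45a, of the repressed list, were 18.4-fold and 11.3-fold higher in Lin+ cells than in LT-HSC, beside lower values of Cdkn1a, Ndrg1 and Ndrg2 at -1.69 ± 0.20, -1.44 ± 0.20 and -1.71 ± 0.20.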
